A study of Mus musculus with 6 samples.

Results

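The genes described here are 10 genes typical of the endothelium, the cell layer that lines blood vessels, out of 55353 genes quantified in whole mouse testis at postnatal day 14. They are Kdr, Flt1, Tie1, Tek, Ptprb, Eng, Cdh5, Pecam1, Emcn and Egfl7, matched by exact gene symbol, together with their 59 annotated isoforms out of 142647. The tested animals were 3 mutants with a conditional deletion of Rnu11 (Rnu11 cKO), the gene of the U11 small nuclear RNA of the minor spliceosome, and they were set against 3 control animals of the same age. The sources used here do not name the promoter that drove the recombinase, the cells it acted in or the alleles of the controls. The 10 genes were picked with earlier results of the same mutant and control libraries in view, so their levels are given as a description and no test of that contrast is attached to them.

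Blood vessels of the testis run in the interstitium between the seminiferous tubules and do not enter the tubules. Endothelial growth and stability depend on a small set of receptor pathways. Vascular endothelial growth factors act through Kdr and Flt1, angiopoietins act through Tek with Tie1 beside it, and circulating bone morphogenetic proteins act through Eng and its partner Acvrl1. The cells are held together by Cdh5 and Pecam1 at their junctions, and they secrete Egfl7 into the matrix around the vessel.

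Ribosomal RNA was removed from the total RNA of each testis before library preparation, and the deposited values are TPM, abundances scaled for transcript length and for the library total, which keep no record of sequencing depth. No counting interval can therefore be given, and a value of exactly 0 is reported as listed at 0. Between 30113 and 34510 genes per library were above 0, and the short RNA genes Rn7s2 and Rn7sk took 26.9% to 30.5% and 12.3% to 15.2% of the TPM of a library. The targeted gene Rnu11 had 196, 393 and 203 TPM in mutants, against 614, 576 and 550.3 TPM in controls, and the groups did not overlap. RNA of whole testis was measured, so fewer cells of a type and less RNA per cell cannot be told apart. The labels do not say whether libraries of a group came from separate litters, so the spread between libraries may include technical spread.

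All 10 genes were above 0 in every library and passed the minimum mean of 1 TPM. The order by mean level over the 6 libraries was Cdh5, Egfl7, Eng, Pecam1, Kdr, Ptprb, Flt1, Tie1, Tek and Emcn. Neighbours in that order were separated in both mutants and controls at 2 places, between Eng and Pecam1 and between Kdr and Ptprb. Pecam1 and Kdr were separated in mutants but overlapped in controls, and the other neighbours overlapped in both groups. By mean, 9 of the 10 genes were higher in mutants and 1, Egfl7, was lower. Of the 10, 0 had groups free of overlap in either direction, whereas 14.5% of the 17959 tested genes had every mutant above every control and 5.77% had every mutant below. The median difference of the 10 was 0.20 on the log2(TPM + 1) scale, beside 0.09 over all tested genes, of which 66.4% were higher in mutants by mean. The highest difference was 0.31 and the lowest −0.02. The median of the 10 was 0.13 with median-ratio scaling of the libraries, 0.11 with TPM rescaled over nuclear protein-coding genes and 0.30 without control 2.

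The 6 libraries kept nearly the same order in most of these genes. Mutant 1 was above every control in 9 of the 10 genes and mutant 2 in 7, while mutant 3 was above every control in 0. Mutant 3 was the lowest mutant in 9 genes, all but Flt1, and it was below control 2 in 9 genes, all but Tek. Control 2 was the highest control in 9 genes, all but Tek. Summed over the 10 genes, the level was 50.5, 52.6 and 37.5 TPM in mutants, against 36.2, 45.0 and 37.0 TPM in controls. Mutant 3 thus lay within the range of the controls in this sum, and the other mutants lay above it. The share of all genes with the same order was not computed, so these counts are a description. The order was not particular to the 10 genes. Over 9337 other protein-coding genes of at least 5 TPM, the median correlation with their mean pattern across the libraries was 0.63.

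**Figure D1:**
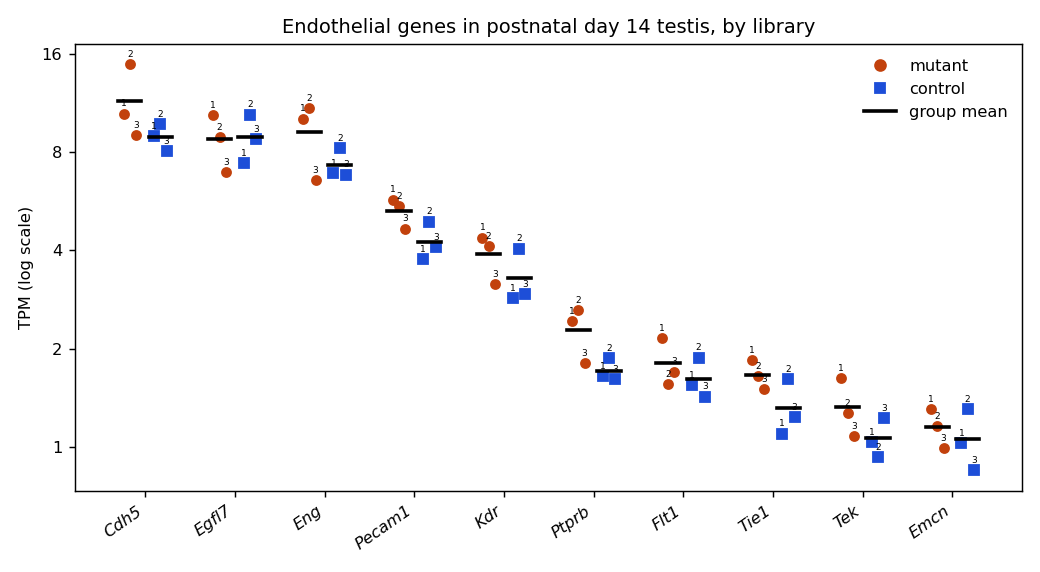
TPM of the 10 endothelial genes in each library on a log axis, mutants as circles and controls as squares, each numbered by its replicate, with the group mean as a bar. The groups overlap in all 10 genes; 9 means are higher in mutants as deposited, and Emcn turns to −0.01 when TPM is rescaled over nuclear protein-coding genes.

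Kdr, also called VEGFR2, is the main signalling receptor for VEGF-A in endothelial cells. It had 4.38, 4.13 and 3.16 TPM in mutants, against 2.85, 4.05 and 2.94 TPM in controls. The means were 3.89 ± 0.644 TPM in mutants and 3.28 ± 0.668 TPM in controls (SD, n = 3 each), a log2 difference of 0.19, with control 2 between the mutants. For Kdr this difference was 0.32 without control 2, 0.31 without mutant 3, 0.12 without mutant 1 or control 1, and 0.11 and 0.08 under the median-ratio and protein-coding scalings. Flt1, or VEGFR1, binds the same ligand and acts largely to limit its supply to Kdr. It had 2.16, 1.56 and 1.70 TPM in mutants, against 1.55, 1.87 and 1.43 TPM in controls, and its log2 difference of 0.10 was close to the median of all genes. That of Flt1 was 0.01 without mutant 1, 0.16 without mutant 2, 0.17 without control 2 and 0.05 without control 3, and 0.03 and 0.01 under the scalings. The ratio of Kdr to Flt1 was 2.18 ± 0.416 in mutants and 2.02 ± 0.162 in controls (SD, n = 3 each), and the groups overlapped. Kdr (ENSMUSG00000062960.10) lies on chromosome 5 from 75932827 to 75978458 and Flt1 (ENSMUSG00000029648.13) on the same chromosome from 147561604 to 147726011, both on the minus strand of GRCm38, as are all coordinates here.

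Flt1 is also made as a shorter, secreted receptor that captures ligand. The full-length isoform Flt1-202, of 1333 codons, had 0.999, 0.798 and 0.744 TPM in mutants, against 0.687, 0.867 and 0.640 TPM in controls. Flt1-203, of 688 codons, had 0.528, 0.421 and 0.528 TPM in mutants, against 0.337, 0.526 and 0.430 TPM in controls. Its ratio to the full-length form was 0.588 ± 0.105 in mutants and 0.590 ± 0.0912 in controls (SD, n = 3 each), a difference far within the spread of either group. For Kdr, the coding isoform Kdr-201 of 1345 codons carried 82.2% ± 2.93 of the gene's TPM in mutants and 80.8% ± 3.49 in controls (SD, n = 3 each). The rest of Kdr came from isoforms annotated as retaining an intron.

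Tek, or TIE2, is the receptor of the angiopoietins. It had 1.62, 1.27 and 1.08 TPM in mutants, against 1.03, 0.929 and 1.23 TPM in controls, with a log2 difference of 0.17, which was 0.08 without mutant 1, 0.28 with a pseudocount of 0.1, and 0.11 and 0.09 under the scalings. It was the gene in which control 3, not control 2, was the highest control. Tie1, a related receptor that modulates Tek, had 1.84, 1.65 and 1.50 TPM in mutants, against 1.10, 1.61 and 1.23 TPM in controls, with a log2 difference of 0.21, which was 0.33 with a pseudocount of 0.1 and 0.13 under protein-coding scaling. Only mutant 3 lay inside the range of the controls for Tie1. Ptprb, also known as VE-PTP, is a receptor phosphatase that dephosphorylates Tek and the Cdh5 junction complex. It had 2.42, 2.62 and 1.80 TPM in mutants, against 1.65, 1.87 and 1.61 TPM in controls. Its mean was 1.33 times higher in mutants, the highest ratio of means among the 10 genes, and mutant 3 lay below control 2. The log2 difference of Ptprb was 0.27, and 0.17 under protein-coding scaling. The ratios Tie1 to Tek and Ptprb to Tek overlapped between the groups, with means of 1.28 ± 0.131 and 1.75 ± 0.294 in mutants and 1.27 ± 0.406 and 1.64 ± 0.353 in controls (SD, n = 3 each).

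Among the isoforms of these 3 genes, Ptprb-201, of 1998 codons, had 1.77, 1.71 and 1.53 TPM in mutants, against 1.32, 1.44 and 1.23 TPM in controls. Every mutant was above every control for this isoform, although the gene as a whole overlapped. Ptprb-203, the longer coding form of 2285 codons, had 0.581, 0.886 and 0.0855 TPM in mutants, against 0.300, 0.393 and 0.354 TPM in controls, so the low value of the gene in mutant 3 went with this isoform. Tek-202 was listed at 0 in all mutants and at 0.0620, 0.00468 and 0.397 TPM in controls. Its mean was 0.077 TPM and its value in control 2 was close to the floor, so little can be read from this. Ptprb-203 and Tek-202 had means under 1 TPM and were picked outside the naming rule. Of the named isoforms, Tie1-201 carried 73.6% ± 11 of Tie1 in mutants and 75.0% ± 4.48 in controls (SD, n = 3 each).

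Eng, or endoglin, is a co-receptor that presents circulating BMP ligands to the receptor Acvrl1. It had 10.2, 10.9 and 6.59 TPM in mutants, against 6.90, 8.24 and 6.83 TPM in controls, and mutant 3 was the lowest of the 6 libraries. The means were 9.21 ± 2.30 TPM in mutants and 7.33 ± 0.795 TPM in controls (SD, n = 3 each), a log2 difference of 0.27. For Eng the difference was 0.15 without mutant 2 and 0.47 without mutant 3, and 0.17 and 0.15 under the scalings. The main isoform, Eng-201, of 653 codons, had 3.73, 4.79 and 3.46 TPM in mutants, against 3.07, 3.25 and 2.58 TPM in controls, with no overlap of the groups. The other named coding isoforms overlapped. Eng-202, of 641 codons, averaged 2.56 ± 0.507 TPM in mutants and 1.77 ± 0.624 TPM in controls, and Eng-205, of 652 codons, averaged 1.63 ± 0.680 TPM in mutants and 1.51 ± 0.389 TPM in controls (SD, n = 3 each). Eng (ENSMUSG00000026814.16, chromosome 2, 32646595 to 32682669, plus strand) overlaps Fpgs on the opposite strand, which had 13.0 to 14.9 TPM in the 6 libraries. The sources used here do not say whether the strand of the reads was used in quantification, and an exchange of reads between these genes was not tested.

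Cdh5, or VE-cadherin, is the adhesion molecule that seals endothelial junctions. It was the most abundant of the 10 genes by mean, with 10.5, 14.9 and 9.05 TPM in mutants, against 8.96, 9.74 and 8.05 TPM in controls. Its log2 difference of 0.31 was the highest of the 10, and mutant 2 alone stood well apart. Without mutant 2 the difference was 0.12, and over all alternatives it ran from 0.12 to 0.45. Cdh5-201, of 784 codons, carried 96.3% ± 1.81 of the gene in mutants and 95.2% ± 3.42 in controls (SD, n = 3 each).

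Pecam1, an immunoglobulin-family adhesion receptor of the junction, had 5.73, 5.48 and 4.67 TPM in mutants, against 3.77, 4.91 and 4.08 TPM in controls. Its mean lay 0.26 higher in mutants on the log2 scale, or 0.17 and 0.15 under the scalings, and only control 2 lay inside the range of the mutants. The ratio of Cdh5 to Pecam1 was 2.16 ± 0.482 in mutants and 2.11 ± 0.231 in controls (SD, n = 3 each). Pecam1 is spliced variably in the exons that encode its cytoplasmic tail, and these isoforms did not share one direction. The pair of short coding exons that tell them apart, on the minus strand of chromosome 11, is printed here from GENCODE M21 transcripts in sense orientation, chr11:106671742-106671798 and chr11:106662002-106662024.
Pecam1 57-nt exon: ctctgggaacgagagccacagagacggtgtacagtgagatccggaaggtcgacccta
Pecam1 23-nt exon: atctcatggaaaacagatactct

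Pecam1-203, of 697 codons, has neither of these exons and was the main form, with 3.19, 2.09 and 2.66 TPM in mutants, against 1.71, 2.35 and 2.23 TPM in controls. Pecam1-202, of 716 codons, has the 57-nt exon and lacks the 23-nt exon. It had 1.64, 1.60 and 1.08 TPM in mutants, against 0.716, 1.02 and 0.393 TPM in controls, and every mutant was above every control. Pecam1-204, of 727 codons, has both exons and went the other way, with 0.262 and 0.234 TPM in mutants 1 and 2 and a listing of 0 in mutant 3, against 0.710, 0.714 and 0.896 TPM in controls. It made up 2.95% ± 2.56 of the gene in mutants and 18.4% ± 3.71 in controls (SD, n = 3 each). The retained-intron isoform Pecam1-206 was listed at 0 in all mutants and at 0.221, 0.195 and 0.261 TPM in controls. Pecam1-204 and Pecam1-206 had means under 1 TPM and were singled out after their values were seen.

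Summed over isoforms, the shift between Pecam1 forms was less clear. Isoforms with the 57-nt exon made up 42.3%, 60.0% and 39.4% of full-length Pecam1 TPM in mutants, against 49.3%, 48.3% and 38.9% in controls. Isoforms with the 23-nt exon made up 12.8%, 29.2% and 14.8% in mutants, against 28.1%, 25.7% and 28.1% in controls. Mutant 2 was above every control in both shares, so the groups overlapped, and its high value went with Pecam1-207, which stood at 1.02 TPM in mutant 2 and at 0.292 and 0.447 TPM in the other mutants.

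Emcn, a sialomucin on the surface of capillary and venous endothelium, was the least abundant of the 10. It had 1.30, 1.16 and 0.991 TPM in mutants, against 1.03, 1.30 and 0.846 TPM in controls. Its log2 difference of 0.07 was below the median of all genes, and it was −0.01 without control 3 and with TPM rescaled over nuclear protein-coding genes. Emcn-201, of 248 codons, carried 60.1% ± 13.5 of the gene in mutants and 59.8% ± 7.43 in controls (SD, n = 3 each).

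Egfl7 encodes a secreted protein with EGF-like domains, and an intron of the gene holds the endothelial microRNA Mir126a. At the level of the gene, Egfl7 had 10.4, 8.90 and 6.97 TPM in mutants, against 7.41, 10.4 and 8.79 TPM in controls. The means of 8.77 ± 1.73 TPM in mutants and 8.88 ± 1.52 TPM in controls (SD, n = 3 each) differed by far less than the spread, with a log2 difference of −0.02. The sign of this difference depended on single libraries, with 0.12 without mutant 3, 0.09 without control 2 and −0.14 at the lowest among the libraries left out.

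Set against the other 9 genes, Egfl7 was lower in every mutant. Its ratio to their geometric mean was 3.10, 2.77 and 2.75 in mutants, against 3.19, 3.72 and 3.79 in controls. The gap between mutant 1 and control 1 was narrow. This ratio was formed from genes chosen on the same libraries. Those 9 genes were all higher in mutants by mean as deposited, while the level of Egfl7 itself overlapped between the groups. The ratio is a description, and no share over all genes is given for it. The ratio of Egfl7 to Cdh5 alone overlapped, at 0.786 ± 0.197 in mutants and 0.997 ± 0.148 in controls (SD, n = 3 each). By level among the 10 genes, Egfl7 ranked 2, 3 and 2 in mutants 1, 2 and 3, and 2, 1 and 1 in controls 1, 2 and 3.

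GENCODE M21 annotates 19 Egfl7 isoforms, 12 of them protein coding, and 9 had a mean of at least 0.5 TPM. They begin at several places along the gene (ENSMUSG00000026921.18, chromosome 2, 26580014 to 26593120, plus strand). RefSeq gives promoter windows at 3 of these starts, each from 250 bases before to 50 bases after the start, on the plus strand of GRCm38.p6. They are printed because the isoforms compared here are told apart mainly by where they start. Capitals mark the ETS-type motif CAGGAAG or its reverse complement CTTCCTG, ETS factors being the family that drives many endothelial genes. The windows are chr2:26580833-26581132 for start 1, chr2:26583615-26583914 for start 2 and chr2:26586386-26586685 for start 3. The first of these belongs to Egfl7-212, and Egfl7-210 begins further upstream.
Egfl7 start 1: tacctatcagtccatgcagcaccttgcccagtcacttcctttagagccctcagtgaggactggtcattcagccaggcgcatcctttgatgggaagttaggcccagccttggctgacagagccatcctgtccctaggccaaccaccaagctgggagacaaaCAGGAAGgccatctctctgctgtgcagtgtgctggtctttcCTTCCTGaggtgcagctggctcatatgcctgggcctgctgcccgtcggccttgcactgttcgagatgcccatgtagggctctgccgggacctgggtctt
Egfl7 start 2: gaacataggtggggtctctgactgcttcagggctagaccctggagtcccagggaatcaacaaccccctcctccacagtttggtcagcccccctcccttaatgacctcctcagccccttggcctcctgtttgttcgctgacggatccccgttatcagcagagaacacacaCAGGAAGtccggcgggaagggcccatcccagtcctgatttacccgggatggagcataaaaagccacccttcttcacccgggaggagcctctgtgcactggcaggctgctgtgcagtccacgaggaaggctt
Egfl7 start 3: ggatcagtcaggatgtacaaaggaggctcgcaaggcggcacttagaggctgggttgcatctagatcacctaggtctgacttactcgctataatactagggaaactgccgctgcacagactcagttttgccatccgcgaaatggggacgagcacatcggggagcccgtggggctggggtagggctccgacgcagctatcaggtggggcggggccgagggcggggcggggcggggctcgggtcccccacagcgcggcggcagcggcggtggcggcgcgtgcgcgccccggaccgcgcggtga

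The window of start 1 holds the motif at 90 and 49 bases before the start and that of start 2 at 81 bases before it, while that of start 3 does not hold these letters. The start 3 window is 67.3% G and C, against 58.3% and 59% for starts 1 and 2 and a median of 52.7% over all promoter windows. RefSeq had windows for 7 of the 10 genes, 9 windows in all. CAGGAAG, searched on both strands, was in 3 of the 9, the third being Emcn, and in 13.3% of 32851 windows of the same length. The related letters CCGGAAG were in 0 of the 9 and in 8.86% of all windows. The GATA-type letters AGATAA were in 1 of the 9, that of Tek, and in 11.2% of all windows. A match is a description of letters and shows no binding.

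The isoform that differed most plainly was Egfl7-215 (ENSMUST00000173920, 484 nt in 4 exons, 26586689 to 26590489). It was listed at 0 in all 3 mutants and had 0.871, 1.18 and 1.05 TPM in controls, or 11.8%, 11.3% and 11.9% of the gene's TPM. Among 57644 isoforms with a mean of at least 0.5 TPM, 16 (0.0278%) were listed at 0 in every mutant and above 0.5 TPM in every control, and 8 (0.0139%) showed the reverse. Egfl7 was part of the choice of genes, so nothing is read from that count. In the authors' deposited table of isoform comparisons, Egfl7-215 stands at a log2 fold change of −100 in the column called confident. So do Pecam1-206, Tek-202 and Flt1-204. Each of these has a mutant average of 0, and the control average is as low as 0.08 TPM, as in Flt1-204. Egfl7-219 and Emcn-204 also have a mutant average of 0. They stand at 0 in that column and at −100 in the column called single run.

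Egfl7-215 begins at start 3 and differs there in where its first exon ends. Egfl7-207 and Egfl7-216 end their first exon at 26586681, Egfl7-205 ends it at 26586717, 36 bases further, and Egfl7-215 ends it at 26586820, 139 bases beyond the first of these ends. All isoforms of start 3 with a coding sequence share the coding start at 26589078, in the next exon, so the stretch by which the first exons differ is noncoding. The model of Egfl7-215 holds 106 codons and its 3′ end is annotated as incomplete, so it is a fragment of a transcript whose end is not given. TPM from the isoforms with the 26586681 end was 0.133, 0 and 1.22 in mutants, against 0.707, 1.20 and 0.0666 in controls. TPM from Egfl7-205 was 0.775, 1.31 and 0 in mutants, against 0.164, 0.649 and 0.190 in controls. These neighbours varied as widely within a group as between the groups.

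**Figure D2:**
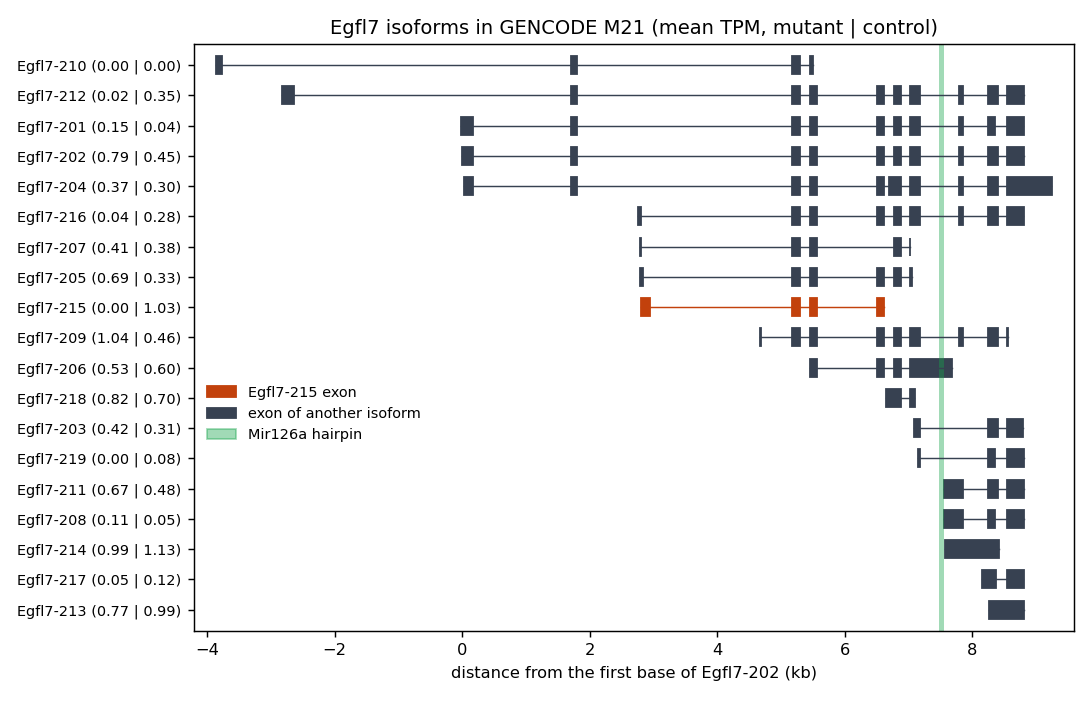
Exons of the 19 Egfl7 isoforms of GENCODE M21 by distance in kb from the first base of Egfl7-202, with mean TPM in mutants and controls beside each name, Egfl7-215 in orange and the Mir126a hairpin as a green band. Egfl7-215 averages 0 TPM in mutants and 1.03 TPM in controls, and it ends upstream of the hairpin.

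Grouped by where they begin, the isoforms of start 3 together had 0.908, 1.31 and 1.22 TPM in mutants, against 1.74, 3.03 and 1.30 TPM in controls. Mutant 2 and control 3 nearly met, at 1.31 and 1.30 TPM, and so the groups overlapped. Start 2, the start of Egfl7-201, Egfl7-202 and Egfl7-204, had 1.45, 1.52 and 0.985 TPM in mutants, against 1.15, 0.983 and 0.254 TPM in controls. Start 1, the most upstream, was near the bottom of the scale, with 0.0172, 0 and 0.0533 TPM in mutants, against 0.0452, 0.303 and 0.695 TPM in controls. Start 4, represented by Egfl7-209 alone, ranged from 0.231 to 1.55 TPM in mutants and from 0 to 0.940 TPM in controls. Of the TPM at these 4 starts, start 3 took 33.1% ± 9.19 in mutants and 54.6% ± 12.1 in controls, and start 2 took 38.2% ± 11.9 in mutants and 22.6% ± 15.6 in controls (SD, n = 3 each). Both shares overlapped between the groups. Start 1 took 0.464%, 0% and 1.40% in mutants, against 1.54%, 6.34% and 21.8% in controls, and its share alone of the 4 did not overlap, although mutant 3 and control 1 nearly met. The other 9 isoforms begin inside the gene and summed to 6.10, 3.93 and 3.04 TPM in mutants, against 3.30, 4.96 and 5.08 TPM in controls.

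Isoforms that encode the longest annotated protein, 278 codons, are Egfl7-202, Egfl7-209, Egfl7-212 and Egfl7-216. Together they had 2.27, 0.904 and 2.51 TPM in mutants, against 1.55, 1.39 and 1.70 TPM in controls, with mutant 2 the lowest and the other mutants the highest. Egfl7-202 had 0.793, 0.672 and 0.905 TPM in mutants, against 0.795 and 0.566 TPM in controls 1 and 2 and a listing of 0 in control 3. Isoforms without a coding sequence took 40.8% ± 3.40 of the gene in mutants and 43.2% ± 7.41 in controls (SD, n = 3 each). With Egfl7-215 left out, the other Egfl7 isoforms summed to 9.81, 6.99 and 6.85 TPM in mutants, against 5.36, 8.54 and 7.23 TPM in controls.

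Among the remaining named isoforms, Egfl7-214, annotated as a retained-intron form near the 3′ end, was narrowly lower in every mutant. It had 1.07, 1.02 and 0.885 TPM in mutants, against 1.08, 1.18 and 1.11 TPM in controls, so that mutant 1 and control 1 stood next to each other. Egfl7-213, also of the retained-intron type, averaged 0.774 ± 0.256 TPM in mutants and 0.995 ± 0.259 TPM in controls, and Egfl7-211 averaged 0.671 ± 0.0726 TPM in mutants and 0.476 ± 0.177 TPM in controls (SD, n = 3 each). Egfl7-206 overlapped too, at 0.526 ± 0.114 TPM in mutants and 0.598 ± 0.0897 TPM in controls (SD, n = 3 each). Egfl7-218 was unstable between libraries, with 1.74, 0.710 and 0 TPM in mutants, against 0, 1.52 and 0.568 TPM in controls. The isoforms matched to GENCODE M21 accounted for 78.6% to 98.3% of the Egfl7 TPM of a library, lowest in mutant 2, and the rest lay in isoforms not analysed here. For the other 9 genes the matched isoforms summed to 100% of the gene.

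**Figure D3:**
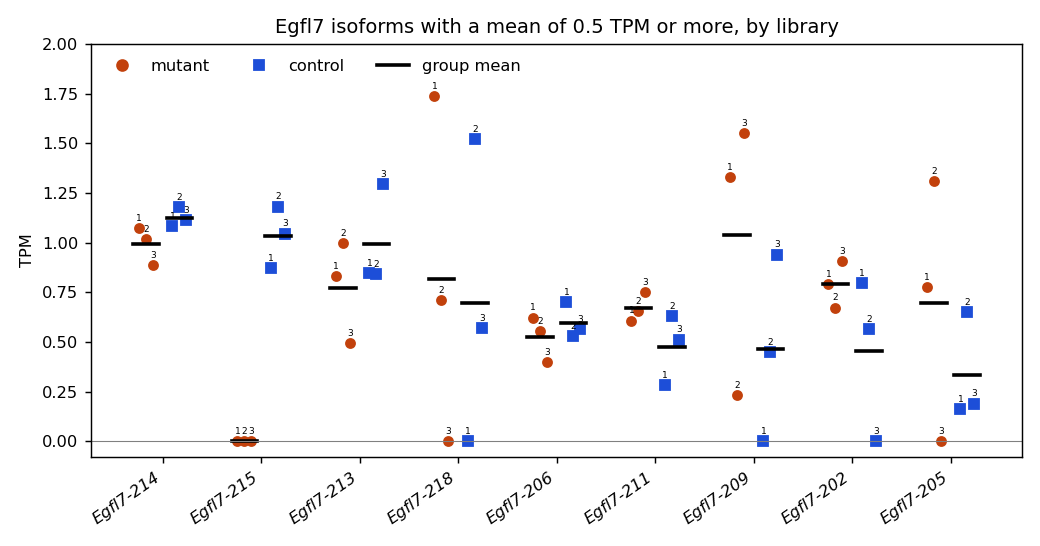
TPM of the 9 Egfl7 isoforms with a mean of at least 0.5 TPM, in each library, mutants as circles and controls as squares, each numbered by its replicate, with the group mean as a bar. Egfl7-215 is listed at 0 in all mutants and lies between 0.871 and 1.18 TPM in controls; of the other 8, the groups are free of overlap in Egfl7-214 alone.

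Over all 59 isoforms of the 10 genes, 37 were protein coding, 3 were listed at 0 in every library, 4 were higher in every mutant and 5 lower in every mutant, beside 7.27% and 4.57% of all isoforms above 0 in any library. Among the 22 with a mean of at least 0.5 TPM, 3 were higher and 2 lower without overlap, beside 10.8% and 5.16% of all isoforms above that mean. Tests of isoform shares across the whole series called 4 of 35607 isoforms (limma, adjusted p under 0.05, 0.0112%), and tests of isoform levels called 6 of 44197 (0.0136%); 5.78% and 11.2% had an unadjusted p under 0.05. Isoforms of the 10 genes were part of both fits, but the genes were chosen on this contrast and their isoforms carry no p here.

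The microRNAs hosted by Egfl7 could not be followed in these libraries. Mir126a lies at chr2:26591357-26591429 on the plus strand, inside the Egfl7 intron from 26591064 to 26591663, and Mir126b lies opposite it on the minus strand. Both were listed at 0 in all 6 libraries. Their mature sequences are shown with the seed, bases 2 to 8, in capitals, to show that the 3p arms differ in seed, by RefSeq on GRCm38.p6.
mmu-miR-126a-3p: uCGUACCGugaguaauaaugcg
mmu-miR-126b-3p: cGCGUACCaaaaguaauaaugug

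Egfl7-215 ends upstream of the Mir126a hairpin, and Egfl7-206 runs through it as part of its last exon. Egfl7-211, Egfl7-208 and Egfl7-214 begin at 26591434, 26591435 and 26591446, just past the last base of the hairpin at 26591429. Of these, Egfl7-211 had 0.608, 0.654 and 0.750 TPM in mutants, against 0.284, 0.631 and 0.512 TPM in controls, and the groups overlapped at mutant 1 and control 2. Agpat2, a lipid enzyme gene on the opposite strand next to Egfl7, overlaps it and had 4.11, 4.58 and 4.02 TPM in mutants, against 3.13, 4.01 and 3.15 TPM in controls, every mutant above every control (log2 difference 0.25, limma, adjusted p = 0.34). Egfl8, the related gene elsewhere in the genome, had 1.27, 1.61 and 1.34 TPM in mutants, against 0.959, 1.09 and 1.67 TPM in controls (log2 difference 0.11, limma, adjusted p = 0.73).

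Genes of the same pathways and other endothelial genes were taken from lists that hold none of the 10. Across the whole series, limma called 5 of 17959 genes at an adjusted p under 0.05, 1 higher in mutants (0.00557%) and 4 lower (0.0223%), and at an unadjusted p under 0.05 it found 12.1% higher and 3.98% lower. Over the lists for all cell types and pathways together, 146 genes were tested and 0 were called, with 39 higher and 14 lower at an unadjusted p under 0.05. The statements on single genes that follow are therefore values, none of which passed the threshold over all genes. The lists were chosen with earlier results of these data known. Counts of their genes by direction or by unadjusted p are thus a description and no independent support.

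Among VEGF ligands and co-receptors, 5 of 8 genes were tested, 4 were higher and 1 lower by mean, and 0 were called by limma, with 1 higher and 0 lower at an unadjusted p under 0.05. The median log2 difference was 0.33, beside 0.09 over all genes, and it was 0.23 and 0.20 under the median-ratio and protein-coding scalings. Vegfb, the gene lower by mean, averaged 9.10 ± 1.06 TPM in mutants and 9.58 ± 1.25 TPM in controls (SD, n = 3 each). Its log2 difference was −0.07 (limma, adjusted p = 0.81). Vegfa, the main ligand of Kdr and Flt1, had 13.5, 13.3 and 10.3 TPM in mutants, against 8.64, 12.1 and 8.0 TPM in controls (log2 difference 0.35, SE 0.17, limma, adjusted p = 0.34). Its ratio to Kdr was 3.19 ± 0.0882 in mutants and 2.92 ± 0.173 in controls (SD, n = 3 each), with every mutant above every control. Kdr was chosen on the same libraries, so this ratio is a description, and no share over all genes is given for it. Vegfd, a ligand of Kdr in humans, averaged 2.16 ± 0.543 TPM in mutants and 1.25 ± 0.445 TPM in controls (SD, n = 3 each; limma, adjusted p = 0.30). Nrp1, a co-receptor of Kdr, averaged 8.44 ± 1.77 TPM in mutants and 6.50 ± 0.958 TPM in controls (SD, n = 3 each; limma, adjusted p = 0.34). Of the Tek ligands, Angpt2 alone passed the filter, at 1.95 ± 0.504 TPM in mutants and 1.68 ± 0.208 TPM in controls (SD, n = 3 each; limma, adjusted p = 0.69).

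Of the genes of BMP and TGF-beta signalling around Eng, 12 of 15 were tested, with 9 higher, 3 lower and a median of 0.21, or 0.12 and 0.09 under the scalings; limma called 0, and 4 higher and 0 lower had an unadjusted p under 0.05. Smad6, an inhibitor that the pathway itself induces, had 3.02, 2.88 and 2.56 TPM in mutants, against 1.13, 1.76 and 1.76 TPM in controls (log2 difference 0.59, SE 0.15, limma, adjusted p = 0.29), and the groups did not overlap. Acvrl1, the type I receptor that works with Eng, had 5.63, 6.83 and 4.95 TPM in mutants, against 4.63, 3.73 and 4.78 TPM in controls, also without overlap (log2 difference 0.33, SE 0.14, limma, adjusted p = 0.31). The ratio of Eng to Acvrl1 overlapped, at 1.58 ± 0.238 in mutants and 1.71 ± 0.433 in controls (SD, n = 3 each). Id2 and Id3, transcriptional inhibitors that respond to BMP signals in many cell types, had log2 differences of 0.52 and 0.49 (limma, adjusted p = 0.29 and 0.31).

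The other endothelial genes formed 3 lists. All 11 tested adhesion genes were higher in mutants by mean, with a median of 0.19, or 0.11 and 0.09 under the scalings, and 4 higher and 0 lower at an unadjusted p under 0.05; 10 were higher under median-ratio scaling and 9 under protein-coding scaling. Jam2, a junction adhesion molecule, had 25.6, 31.4 and 22.2 TPM in mutants, against 18.6, 19.4 and 18.7 TPM in controls (log2 difference 0.45, limma, adjusted p = 0.29). F11r, another of this family, averaged 60.4 ± 9.93 TPM in mutants and 44.2 ± 7.86 TPM in controls (SD, n = 3 each; limma, adjusted p = 0.30). Jam2, F11r and Ocln are also made by other cells of the testis and do not mark the endothelium alone. Cldn5, the endothelial claudin, averaged 2.92 ± 0.708 TPM in mutants and 2.59 ± 0.270 TPM in controls (SD, n = 3 each), and the groups overlapped.

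Among 15 tested transcription factors of 19 listed, 12 were higher and 3 lower, with a median of 0.12, which was 0.02 under median-ratio and −0.01 under protein-coding scaling; 1 was higher and 1 lower at an unadjusted p under 0.05. Epas1, a hypoxia-inducible factor subunit, had 33.7, 36.1 and 27.1 TPM in mutants, against 26.5, 24.6 and 23.5 TPM in controls (log2 difference 0.36, limma, adjusted p = 0.29). Hey1, a target of Notch signalling, was lower in every mutant, with 5.48, 4.16 and 4.80 TPM, against 5.95, 6.18 and 5.82 TPM in controls (log2 difference −0.27, limma, adjusted p = 0.31). Of 22 further endothelial genes tested out of 31, 21 were higher and 1 lower, with a median of 0.24, or 0.15 and 0.12 under the scalings, and 3 higher and 0 lower at an unadjusted p under 0.05. Ece1, an endothelin-converting enzyme, had 38.8, 38.8 and 56.7 TPM in mutants, against 24.4, 27.4 and 29.1 TPM in controls (log2 difference 0.69, limma, adjusted p = 0.29). It was highest in mutant 3, the mutant in which most of the 10 genes were lowest. Cavin2, a caveolar coat protein, and Thbd, thrombomodulin, were also higher in every mutant, at 4.57 ± 0.430 and 39.7 ± 4.66 TPM in mutants and 3.14 ± 0.140 and 29.3 ± 3.18 TPM in controls (SD, n = 3 each; limma, adjusted p = 0.29 for both).

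Over the 3 endothelial lists together, 48 genes were tested, 44 were higher and 4 lower by mean, and their median difference was 0.19, or 0.11 and 0.09 under the scalings. In 8 of them every mutant was above every control and in 1 below, beside 14.5% and 5.77% of all genes. The number of higher genes was 37 with median-ratio scaling and 34 with protein-coding scaling. The list genes named above were mostly those with the smallest p-values. The endothelial markers Erg, Vwf and Plvap overlapped between the groups, with log2 differences of 0.11, 0.31 and 0.10. Which cells the RNA of Epas1, Ece1 and Thbd came from was not tested. Protein-coding scaling moved the median of all genes to −0.03, and relative to the median of all genes the 10 genes lay 0.11 above it as deposited, 0.12 with the first scaling and 0.13 with the second. The 8 Notch and ephrin genes tested had 5 higher and 3 lower with a median of 0.03, which was negative under both scalings. Of 5 lymphatic endothelial genes, Prox1 and Lyve1, which define that lineage, were under 1 TPM by mean, and the median of the 3 tested changed sign under both scalings.

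**Figure D4:**
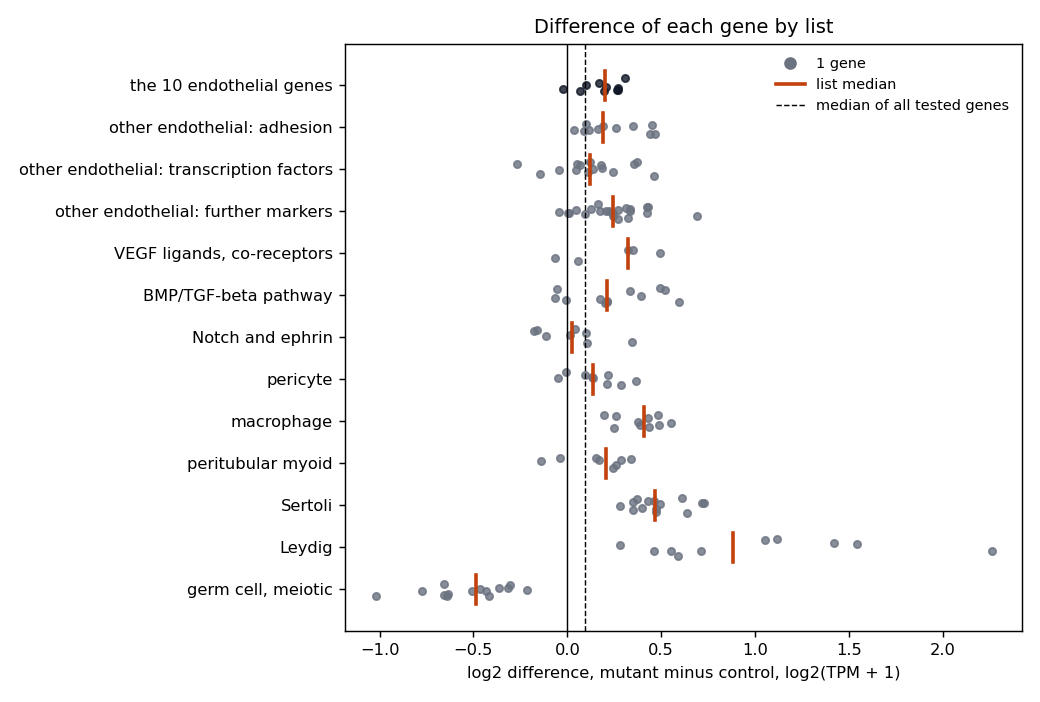
Log2 difference of each tested gene, mutant minus control, on the log2(TPM + 1) scale, in the 10 endothelial genes and 12 lists, with list medians as orange bars and the median of all genes, 0.09, as a dashed line. The 10 genes run from −0.02 to 0.31; the Sertoli and Leydig medians are 0.47 and 0.88 and the meiotic median is −0.49, while the transcription factor and Notch medians turn negative when TPM is rescaled over nuclear protein-coding genes.

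Genes of other testis cell types moved with the endothelial genes in the same libraries. All 14 tested Sertoli cell genes were higher in mutants by mean, with a median log2 difference of 0.47 and a sum of 2465 to 3161 TPM in mutants and 1782 to 2044 TPM in controls. Leydig cell genes were higher in 10 of 10 cases, with a median of 0.88 and a sum of 376 to 566 TPM in mutants and 220 to 375 TPM in controls, and so were all 10 tested macrophage genes, with a median of 0.41 and a sum of 63.0 to 91.1 TPM in mutants and 46.7 to 68.4 TPM in controls. All 14 meiotic germ cell genes were lower, with a median of −0.49 and a sum of 505 to 618 TPM in mutants and 715 to 810 TPM in controls. Limma called 0 genes of these 4 lists, while 11 Sertoli, 7 Leydig and 4 macrophage genes were higher and 13 germ cell genes lower at an unadjusted p under 0.05. These lists too were chosen with earlier results of the same data known, so the counts only describe them. No gene of these 4 lists was listed at 0 in every library. The part of this in the values of the 10 genes was not tested.

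Pericyte and peritubular myoid genes gave smaller medians than the Sertoli, Leydig and macrophage genes. Of 9 pericyte genes tested, 7 were higher and 2 lower, with a median of 0.14, or 0.06 and 0.04 under the scalings, and a sum of 39.1 to 45.7 TPM in mutants and 38.6 to 40.2 TPM in controls; limma called 0, with 1 higher and 0 lower at an unadjusted p under 0.05. Of 8 peritubular myoid genes, 6 were higher and 2 lower, with a median of 0.20, or 0.10 and 0.07 under the scalings, and a sum of 257 to 312 TPM in mutants and 219 to 287 TPM in controls; limma called 0, with 1 higher and 0 lower at an unadjusted p under 0.05. Red cell genes were partly present, and Alas2 and Hbb-bs were tested. Alas2 had 12.2, 9.85 and 9.37 TPM in mutants, against 7.59, 8.10 and 5.85 TPM in controls (limma, adjusted p = 0.29). Mutant 3 was its lowest mutant and control 2 its highest control, as in most of the 10 genes. Hbb-bs, the adult beta globin, had 14.5, 5.43 and 12.5 TPM in mutants, against 3.97, 3.38 and 4.86 TPM in controls (limma, adjusted p = 0.29), and it was lowest of the mutants in mutant 2, where the endothelial sum was highest.

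The profile of the 10 genes over the libraries, as the mean of their centred log2 values, was 0.21, 0.17 and −0.10 in mutants, against −0.17, 0.05 and −0.15 in controls. The Sertoli profile was 0.32, 0.42 and −0.01 in mutants, against −0.25, −0.11 and −0.36 in controls, and the Leydig profile was 0.48, 0.94 and 0.08 in mutants, against −0.73, −0.02 and −0.75 in controls. The germ cell profile ran the other way, at −0.30, −0.41 and −0.09 in mutants, against 0.36, 0.10 and 0.34 in controls. In all 4 profiles mutant 3 and control 2 lay nearest to the other group. The median-ratio scaling factors had a like order, at 1.07, 1.11 and 0.961 in mutants, against 0.944, 0.995 and 0.966 in controls.

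**Figure D5:**
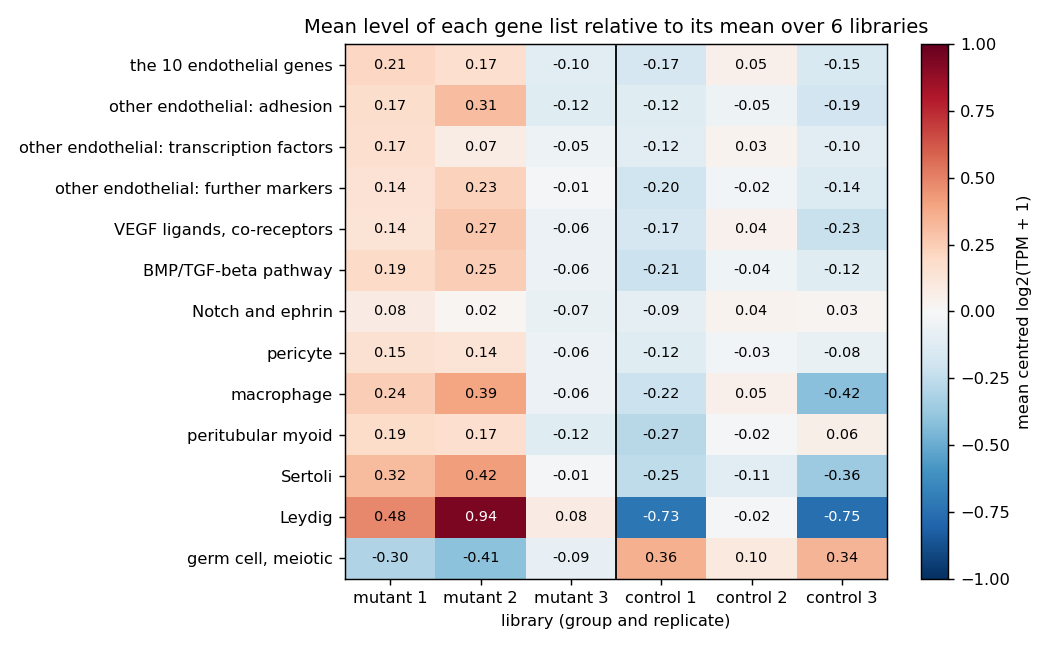
Mean centred log2(TPM + 1) of each gene list in each library, mutants to the left of the line and controls to the right, in red where a list lies above its own mean over the 6 libraries and in blue where it lies below. The 10 endothelial genes are at −0.10 in mutant 3 and at 0.05 in control 2, the libraries of each group nearest to the other group.

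The pattern of the 10 genes was shared by many other genes. Among 9337 protein-coding genes of at least 5 TPM, 1308 had a Pearson correlation over 0.9 with the profile of the 10 across the 6 libraries, which share their scaling. The 6 closest were Grb10, Vasp, Ints3, Ctbp1, Armc1 and Dennd5a, with correlations of 0.993 to 0.996. Vasp, a regulator of actin filaments, had 23.4, 21.3 and 16.5 TPM in mutants, against 15.5, 19.4 and 15.7 TPM in controls. The median correlation over the 9337 genes was 0.63. Of 8 further endothelial markers, the correlation with the profile ran from −0.20 for Plvap, a component of fenestral diaphragms, to 0.89 for Cd34, a surface sialomucin. Plvap, Erg (0.46), Esam (0.56) and Cldn5 (0.57) were below that median. Vwf (0.81), Clec14a (0.85), Robo4 (0.86) and Cd34 were above it. Cldn5, Vwf and Plvap were themselves under 5 TPM, unlike the genes behind the median. These correlations describe 6 libraries and carry no test.

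The authors' deposited table of gene comparisons gives the 10 genes a log2 fold change, in the column it calls confident, from −0.10 for Egfl7 to 0.44 for Ptprb. Egfl7 is the one of the 10 with a negative value there.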

How the data were processed

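Per the labels' protocols, whole testes were profiled as stranded, rRNA-depleted total RNA. Per the submitters' processing notes, reads were aligned with HISAT2 to GRCm38; the quantifier is not given in the sources used here. Values per gene and per isoform were deposited by the authors as TPM, without counts, and, per the file headers, tables of group averages and log2 fold changes, used for description only.

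All 6 libraries were fitted with limma 3.58.1 in R 4.3.3 (two-sided, eBayes trend) on log2(TPM + 1), for genes whose mean reached 1 TPM, with a Benjamini-Hochberg threshold of 0.05; fold changes on this scale understate the change of low genes. An exact permutation test of 3 against 3 libraries reaches 0.1 at the lowest. Isoforms were fitted alike, and isoform shares as log2 ratios of an isoform to the gene's others with 0.1 added, for genes of at least 5 TPM and shares of 5% to 95%.

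The members and lists were chosen with earlier results of these data known. Isoforms were named by rule at a mean of at least 0.5 TPM (Egfl7) or 1 TPM. Some isoforms with lower means are also given and were picked outside that rule. Among them are Flt1-202, Flt1-203, Ptprb-203, Tek-202, Emcn-201, Pecam1-204, Pecam1-206 and Pecam1-207. Named list genes had the 4 smallest p-values or mark a cell type. GENCODE M21 matched 53461 of 55353 gene symbols and 141524 of 142647 isoforms. Alternatives were another pseudocount, other filters, 2 scalings, no trend, a replicate block and each library left out. Tables and figures were made in Python 3.11.15 with pandas 2.3.3 and matplotlib 3.10.9.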

Additional observations from a re-analysis of the deposited data

How the results depend on the processing

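The median difference of the 10 genes, 0.20, ran from 0.11 to 0.30 over 12 alternatives, and from 0.14 to 0.30 with a library left out; a filter of 5 TPM left 3 of the 10. Emcn and Egfl7 changed sign under 2 alternatives each. Gene calls over the series were 5, against 8 with a pseudocount of 0.1, 0 without a filter, 0 with the replicate block, and 3 with a filter of 5 TPM, either scaling or no trend; leaving out a library gave 2 to 8. Calls among list genes were 0, against 1 (Hfm1, a meiotic gene) with a pseudocount of 0.1 or a filter of 5 TPM, and 0 to 0 with a library left out. Isoform calls were 6, against 11 with a pseudocount of 0.1 and 0 with the block, and 2 to 11 with a library left out. Share calls were 4, against 0 with the block and 2 to 9 with a library left out. The log2 share ratio of Egfl7-215 was −3.66, against −1.77 with a pseudocount of 0.5, since its mutant values of 0 leave the pseudocount alone in the numerator, and −3.75 to −3.49 with a library left out. The causes of the other moves were not tested. Same-numbered libraries did not deviate together (correlations −0.07, 0.03 and 0.08). With so few libraries these correlations cannot tell whether same-numbered libraries share a litter or batch, which the labels do not say. TPM keeps no depth, so the counting error of small isoform values cannot be given.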
